A study of Rattus norvegicus with 6 samples.

Results

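Atrnl1 encodes attractin-like 1, and the circular RNAs (circRNAs) of this gene were examined in cultured rat dental follicle cells, the connective tissue cells that surround the developing tooth. The members were the circRNAs whose host gene field, split on commas, contained Atrnl1. This rule found 10 of the 4143 circRNAs in the table, and Atrnl1 was the only host name of each. The gene was chosen by its circRNA counts in the 2 culture conditions, which were known from earlier work on the table (more counts, and several circRNAs higher, in induction), so every difference between the conditions is given here as a description of these counts. The labels' protocols describe cells isolated from tooth germs of Sprague-Dawley rats 5 to 7 days old, used at passage 3 to 4 and cultured for 28 days in one of 2 media. The control medium held 5% fetal bovine serum, and the induction medium held the same serum with 1% of an osteogenic liquid made of dexamethasone (0.010 mmol/L), ascorbic acid (0.028 mmol/L) and β-glycerophosphate (1.000 mol/L). Each group has 3 samples in the labels but a single count column in the table, so no value has a replicate error, and the number of rats is 3 in the treatment protocol but 4 in the design text.

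A circRNA arises when the spliceosome joins the end of an exon to the start of an exon that lies upstream, or to its own start, in place of the next exon downstream. This back-splice closes the RNA into a ring without free ends, which makes it resistant to exonucleases, and a read that crosses the back-splice junction identifies it. One gene can give several circRNAs that share one end of the junction and differ in the other. Attractin-like 1 is a transmembrane protein with a long extracellular part and is the paralog of attractin, the product of the mouse mahogany locus that acts in coat colour and energy balance. In the mouse, its intracellular part binds the melanocortin-4 receptor. The gene is best known from the nervous system.

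The 10 circRNAs lay on chromosome 1 of Rnor_6.0, between 278580846 and 278749829, a window of 168984 nt. They used 3 starts (the lower coordinate of the junction) and 8 ends (the higher coordinate). The starts are called S1 (278580846), S2 (278698312) and S3 (278731694) here. The ends, in order of coordinate, are E1 (278590747), E2 (278594581), E3 (278608643), E4 (278620822), E5 (278661960), E6 (278701866), E7 (278731755) and E8 (278749829). A circRNA is named by its start and end, so that S1-E2 runs from 278580846 to 278594581. An annotation of Rnor_6.0 was not used here, and the exons and introns at these positions, the strand and the exon content of the rings are therefore not given. The span is the distance on the genome and not the length of the RNA.

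The structure was that of fans that open from a few starts. S1 was joined to 6 ends, S2 to 3 ends and S3 to 1 end. Of the 13 pairs of a start with a higher end, 10 were listed, and S1-E6, S1-E7 and S3-E7 were not. The table holds only circRNAs with at least 1 count in both columns, so an unlisted pair may have been counted in 1 column. E8 was the only end used more than once. It was joined to all 3 starts, while each of the 7 other ends belonged to 1 circRNA. S1 and S2 lay 117466 nt apart, and none of the ends E1 to E5, joined to S1 alone, reached S2. The nearest of them, E5, lay 36352 nt below S2. The circRNAs therefore occupied a lower stretch used from S1 and an upper stretch used from S2 and S3, and S1-E8, with a span of 168984 nt, covered both. S3 lies just below E7, and the stretch from S3 to E7 measures 62 nt, so S2-E7 and S3-E8 overlap by that stretch.

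**Figure D1:**
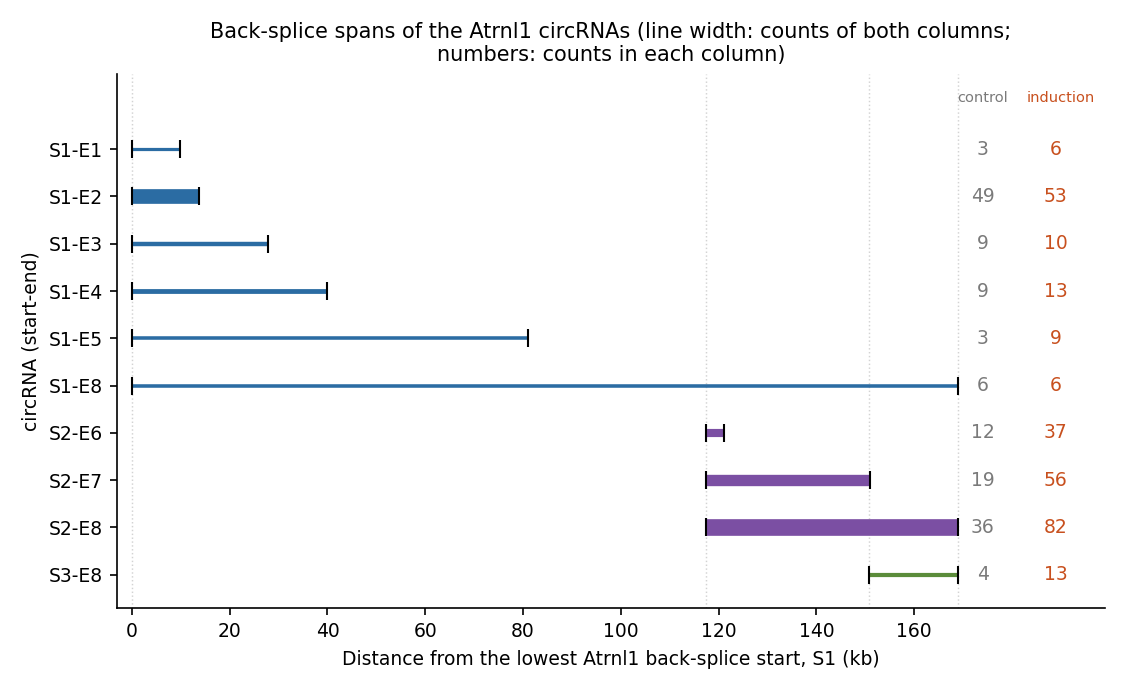
Spans of the 10 Atrnl1 circRNAs, with distance from S1 in kb on the horizontal axis and 1 line per circRNA, coloured by start (S1 blue, S2 purple, S3 green) and as wide as its counts in both columns together. The counts in control and induction stand at the right, and the dotted lines mark S1, S2, S3 and E8, the only end shared by several circRNAs.

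The spans ran from 3555 nt for S2-E6 to 168984 nt for S1-E8, with a median of 30621 nt. The median over all 4143 circRNAs was 5664 nt, and 9 of the 10 Atrnl1 circRNAs were longer than that. A span of at least 50000 nt was found for S1-E5 (81115 nt), S1-E8 and S2-E8 (51518 nt), that is 3 of 10, against 6.78% of all circRNAs. The most abundant circRNA of each fan was neither its shortest nor, in S1, its longest. In S1 it was S1-E2, with a span of 13736 nt, and in S2 it was S2-E8, the longest of its 3.

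A start with 6 circRNAs was rare in the table, but only a host with at least 6 circRNAs can have one. Atrnl1 ranked 17 by number of circRNAs among 1984 host names within 5 Mb of 1 chromosome. Of 3496 distinct starts, 13.8% were used by more than 1 circRNA and 3 were used by 6 or more. These 3 were S1, a start of Kmt2e (a chromatin regulator related to histone methyltransferases), also with 6 circRNAs, and a start of Col3a1 (type III collagen), with 8. Among the 31 host names with at least 8 circRNAs that lay within 5 Mb of 1 chromosome, 4 had as few as 3 starts. They included Atrnl1, Dcun1d4 (a co-factor of protein neddylation) and Nedd4 (a ubiquitin ligase). The ends of Atrnl1 outnumbered its starts by 5, and the largest such excess among the 30 others was 4. Adamts6, a metalloprotease of the extracellular matrix, had 14 circRNAs from 8 starts and 7 ends, and Arhgap10, a GTPase-activating protein, had 19 from 12 starts and 11 ends. The recurring positions of both hosts were thus spread over starts and ends alike, where those of Atrnl1 lay on the side of the starts. These numbers describe the coordinates and have no test.

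**Figure D2:**
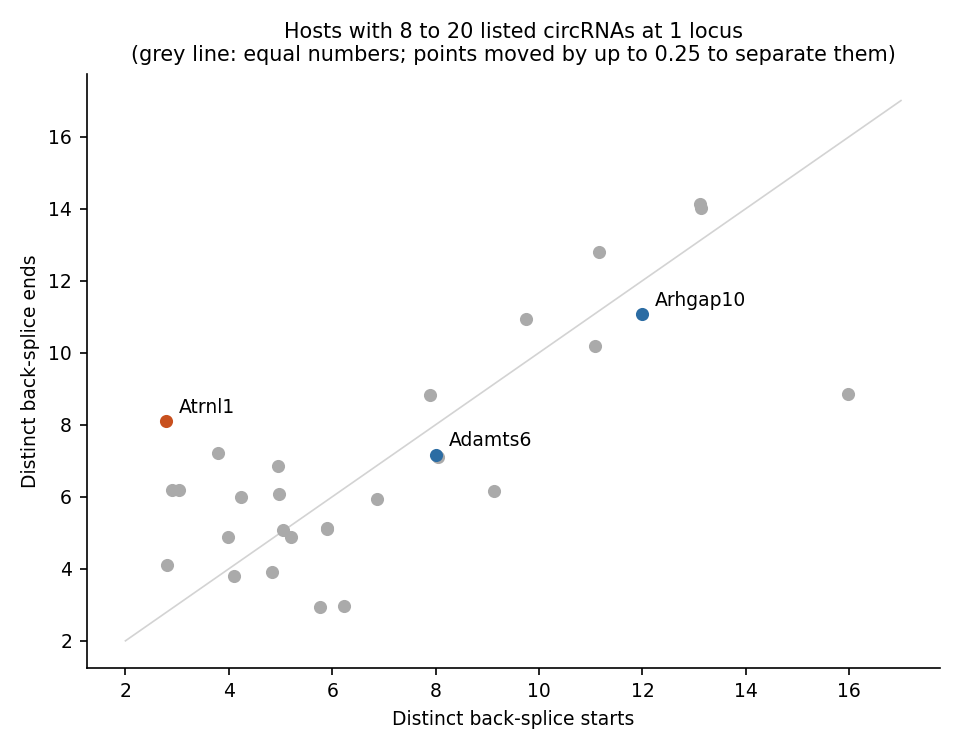
Number of distinct back-splice ends against number of distinct starts for the host names with 8 to 20 circRNAs within 5 Mb of 1 chromosome, 1 point per host. The grey line marks equal numbers, and Atrnl1, with 3 starts and 8 ends, lies farthest above it.

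The deposited counts of the table came to 137740 in control and 164746 in induction, and the totals behind the deposited TPM values (counts scaled to a common column total, without correction for length) were 203283 and 221596. Ratios of induction to control use these totals. Their exact 95% intervals (Clopper-Pearson, applied to the part of a circRNA's counts that fell in induction) cover counting error only, without the spread between rats and without duplicate reads. How the libraries were combined is not stated, and the intervals hold only if a column is a sum of reads. If it is a mean or was rescaled, they do not have their stated coverage. A circRNA is called higher or lower where its levels differed by at least 2-fold and the interval excluded a ratio of 1. Of 8 host genes fixed as markers of dental follicle and osteogenic mesenchyme, 6 were listed, and Postn and Twist1 were not. The listed ones had 39947 counts in control and 50341 in induction together. Most of these came from Col1a1 (16421 and 20349) and Col3a1 (22700 and 28461). Runx2 had 655 and 1378 counts, Cdh11 155 and 130, Fn1 14 and 20, and Vim only 2 and 3. None of 11 nerve and glia markers and none of 5 epithelial markers was listed. Leukocytes, endothelium and muscle had 4 markers each, of which 1 each was listed. Dock8, for leukocytes, had 29 counts in control and 19 in induction, Flt1, for endothelium, had 48 and 50, and Dmd, for muscle, had 10 and 15. An unlisted host is not shown to be unexpressed, since the table counts rings only, and the part of other cell types in the results below was not tested.

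Together the Atrnl1 circRNAs had 150 counts in control and 285 in induction, or 738 and 1286 TPM. These were 0.109% and 0.173% of the listed counts, and Atrnl1 ranked 68 by counts and 17 by number of circRNAs among 1984 host names that lie within 5 Mb of 1 chromosome. The ratio of the sums was 1.74 (1.43 to 2.14). More cells with these rings and more rings per cell cannot be told apart in such bulk samples, and ring counts alone do not show whether the linear transcript changed. Of the 10 circRNAs, 3 were higher in induction, none was lower and 7 were neither. Over all 4143 circRNAs, 9.22% were called higher and 9.29% lower. The rule calls more where counts are high. Among the 1126 circRNAs with at least 40 counts over both columns, 16.3% were called higher, and 4 Atrnl1 circRNAs had that depth, among them the 3 that were called. The median log2 ratio was 0.97 over the 10 members and −0.05 over all 4143.

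The 3 circRNAs called higher were those that start at S2. S2-E8, the most abundant Atrnl1 circRNA, had 36 counts in control (177 TPM) and 82 in induction (370 TPM), and its ratio was 2.09 (1.40 to 3.18). S2-E7 had 19 counts in control (93.5 TPM) and 56 in induction (253 TPM), 2.70 times as many per total (1.58 to 4.82). S2-E6, the shortest, had 12 counts in control (59.0 TPM) and 37 in induction (167 TPM), a ratio of 2.83 (1.44 to 5.96). The 3 intervals overlap widely, so the S2 circRNAs cannot be ranked by their ratio. S2-E8 lies just inside the 2-fold limit, and it fell short of it, at 1.90, when the columns were scaled to their listed totals. Summed over S2 the counts were 67 and 175, a ratio of 2.40 (1.80 to 3.22). In the authors' deposited table, these 3 circRNAs were the members with an FDR under 0.05, with 0.0018 for S2-E8, 0.0010 for S2-E7 and 0.0093 for S2-E6. In the authors' deposited table, 16.9% of all circRNAs had an FDR under 0.05. The test behind that FDR is not stated. With a single count column per group, it cannot be taken as a comparison of replicate cultures.

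S3-E8, which lies in the same upper stretch, had 4 counts in control and 13 in induction. Its ratio of 2.98 was the largest of the 10, but the interval of 0.921 to 12.6 included 1 at this depth, and it was not called. The authors' deposited table gave it a p-value of 0.048 and an FDR of 0.17.

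The circRNAs that start at S1 were close to equal in the 2 columns as a group. Their sums were 79 counts in control and 97 in induction, or 389 and 438 TPM, a ratio of 1.13 (0.828 to 1.54), and none of the 6 was called. S1-E2 held most of these counts, with 49 in control (241 TPM) and 53 in induction (239 TPM), a ratio of 0.992 (0.660 to 1.49). This interval lies within 2-fold of equal levels on either side, as far as counting error goes. Without S1-E2 the 5 other circRNAs of S1 came to 30 counts in control and 44 in induction, 1.35 times as many per total (0.827 to 2.22).

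The 5 low circRNAs of S1 had between 3 and 13 counts in a column, and depth limits what each can show. S1-E3 had 9 counts in control and 10 in induction (ratio 1.02, 0.372 to 2.84), and S1-E4 had 9 and 13 (1.33, 0.524 to 3.51). S1-E8, the ring of the widest span, had 6 counts in each column (0.917, 0.245 to 3.43). None of these 3 reached 2-fold. S1-E1, the shortest of S1, had 3 and 6 counts (1.83, 0.392 to 11.3), and S1-E5 had 3 and 9 (2.75, 0.687 to 15.8). The intervals of all 5 included both 1 and 2, so a 2-fold higher level could not be told from equal levels at this depth.

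**Figure D3:**
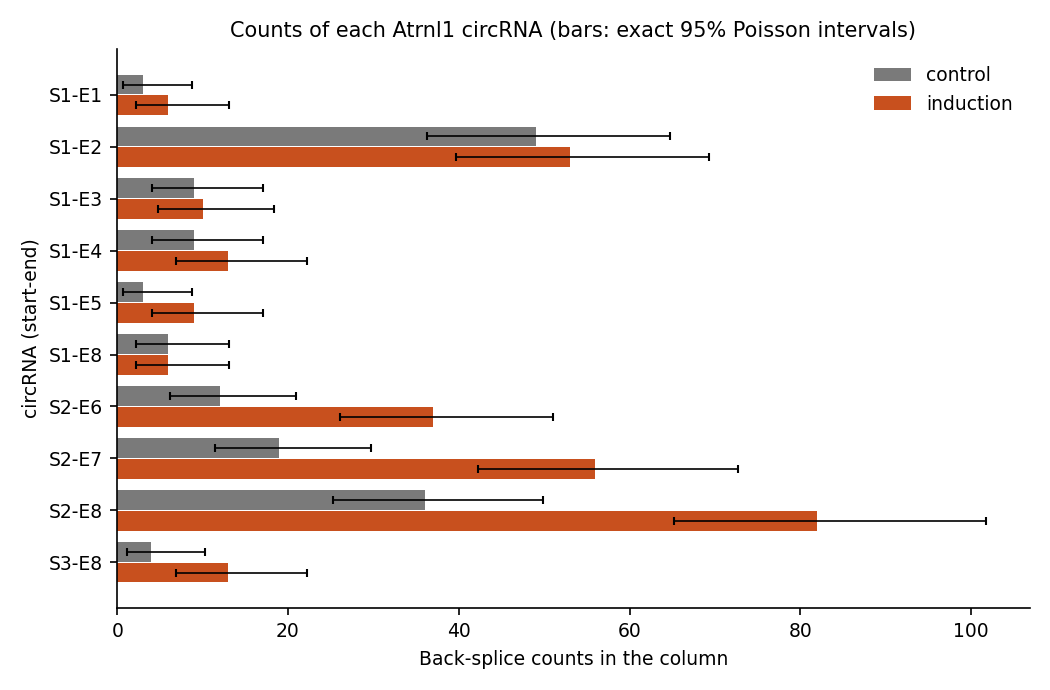
Back-splice counts of each Atrnl1 circRNA in the control (grey) and induction (orange) columns, with exact 95% Poisson intervals as error bars. The bars of S1-E2 are nearly equal at 49 and 53 counts, while the induction bars of S2-E6, S2-E7 and S2-E8 are longer than the control bars.

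**Figure D4:**
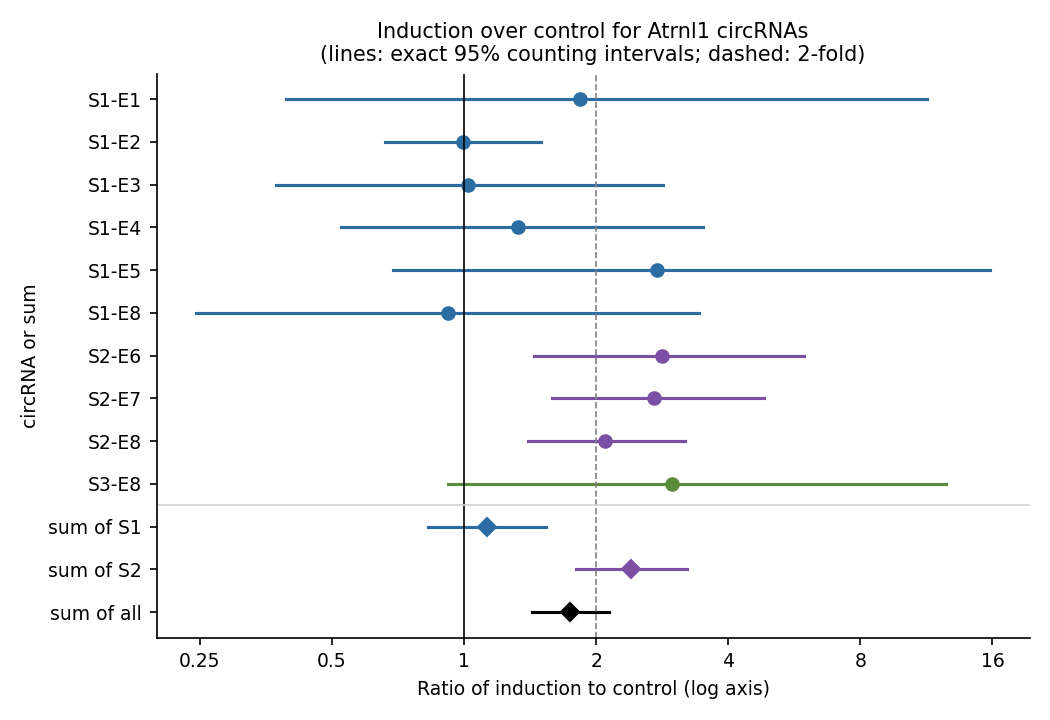
Ratio of induction to control on a log axis for each Atrnl1 circRNA (circles) and for sums (diamonds), with exact 95% counting intervals as lines, coloured by start (S1 blue, S2 purple, S3 green). The intervals of the 3 S2 circRNAs lie above 1, and those of the 6 S1 circRNAs and of S3-E8 include it.

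The difference between the starts can be read without any scaling of the columns, as the odds of an S2 count against an S1 count. These were 2.13 times as high in induction as in control (exact conditional 95% interval 1.38 to 3.27, counting error only). With the most abundant circRNA of each start left out they were 2.05 times as high (1.05 to 3.96). When each of the 9 circRNAs of S1 and S2 was left out in turn, the value ranged from 1.78 to 2.44. The lowest of these, without S1-E2, had an interval of 0.992 to 3.16 that included 1. If each sum in each column is taken to vary with a coefficient of variation of 40%, the interval widened to 0.445 to 10.2 and included 1. The contrast of S2 with S1 was chosen after these counts were seen. It was also not unusual for the table. Among 108 host names with at least 50 counts at each of their 2 leading starts, the interval of the same odds ratio excluded 1 for 38.9%, and 21 hosts, Atrnl1 included, differed at least as much as Atrnl1. The absolute log2 odds ratio was 1.09 for Atrnl1 and had a median of 0.56 over the 108. The leading starts of Adamts6 (odds ratio 1.13, 0.796 to 1.60) and Arhgap10 (0.896, 0.645 to 1.25) did not differ beyond counting error.

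Within a fan no shift between ends was detectable beyond counting error. Of the S2 counts, S2-E8 took 53.7% in control and 46.9% in induction, S2-E7 took 28.4% and 32.0%, and S2-E6 took 17.9% and 21.1%. For each of the 9 circRNAs of S1 and S2, the interval of its odds against the others of the same start included 1. Of the S1 counts, S1-E2 took 62.0% in control and 54.6% in induction. E8 gives a view of the 3 starts at a common end. From S1 it had 6 and 6 counts, from S2 36 and 82, and from S3 4 and 13. The odds of S2-E8 against S1-E8 were 2.28 times as high in induction (0.563 to 9.10), an interval too wide to tell the 2 apart at this depth.

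The leading Atrnl1 circRNA was a different one in each column. In control S1-E2 took 32.7% of the Atrnl1 counts (exact binomial 95% interval 25.2 to 40.8), and S2-E8 took 24.0% (17.4 to 31.7). In induction S2-E8 took 28.8% (23.6 to 34.4), S2-E7 took 19.6% (15.2 to 24.7) and S1-E2 took 18.6% (14.3 to 23.6). The odds of S1-E2 against the other 9 circRNAs were 0.471 times as high in induction as in control (0.292 to 0.762), and it was the only circRNA of the 10 whose interval excluded 1 with all other members as the reference. With S2-E8 left out of the reference, the odds of S2-E7 were 1.90 times as high in induction (1.04 to 3.61). The level of S1-E2 was 241 TPM in control and 239 TPM in induction, as given above, so its lower share stands beside a nearly equal level. S2-E7 took 12.7% in control (7.80 to 19.1). S2-E6 took 8.00% in control (4.20 to 13.6) and 13.0% in induction (9.31 to 17.4). S3-E8 took 2.67% and 4.56%, and each of S1-E1, S1-E3, S1-E4, S1-E5 and S1-E8 took between 2% and 6% in either column. By start, S1 went from 52.7% (44.4 to 60.9) to 34.0% (28.6 to 39.9), and S2 from 44.7% (36.6 to 53.0) to 61.4% (55.5 to 67.1). A change of the leading circRNA was common, with 13 of the 31 hosts of at least 8 circRNAs.

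**Figure D5:**
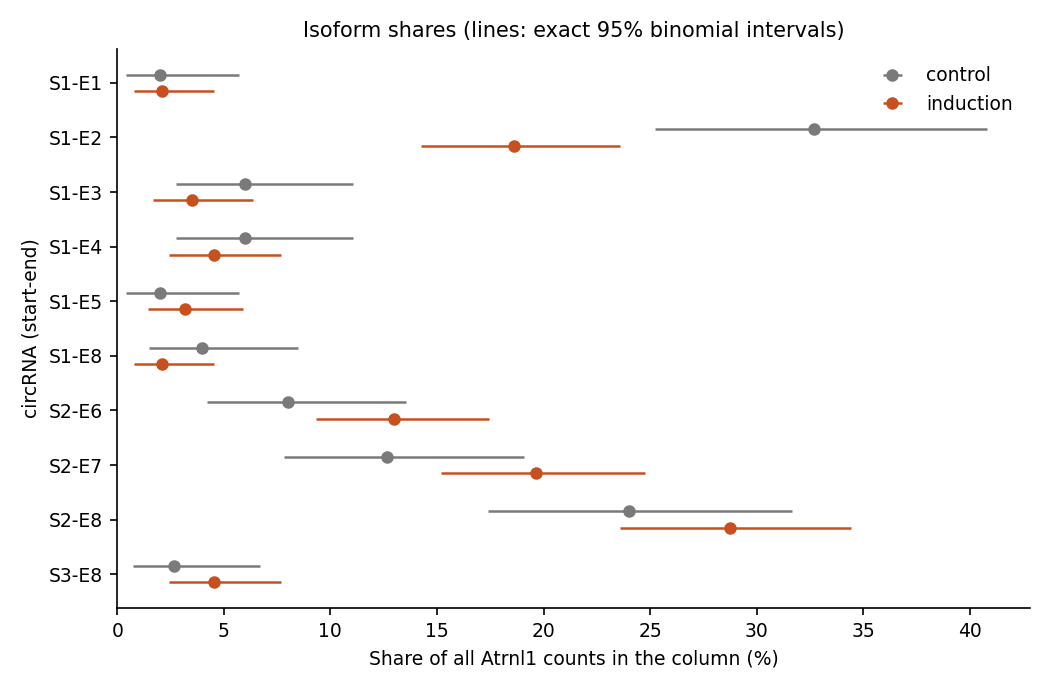
Share of each Atrnl1 circRNA in all Atrnl1 counts of the control (grey) and induction (orange) columns, in percent, with exact 95% binomial intervals as lines. S1-E2 leads in control at 32.7% and S2-E8 leads in induction at 28.8%.

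Hosts of similar summed ratio were sought among the 80 names with at least 8 circRNAs, over the 2 columns. The 3 nearest were SNORD116, with a log2 ratio of 0.77 against 0.80 for Atrnl1, Asph, with 0.74, and SNORA21, with 0.67. SNORD116 and SNORA21 are names of small nucleolar RNAs that the table attaches to positions over more than 5 Mb, as for 49 of the 80 names, and do not stand for 1 gene. Among names at 1 locus the nearest were Asph (aspartate beta-hydroxylase), with 206 and 375 counts over 11 circRNAs, and Col11a1 (a fibrillar collagen), with 621 and 1035 over 14. Their log2 ratios were 0.74 and 0.61. Only Col6a1, with a ratio of 3.59, exceeded Atrnl1 among the 30 other hosts at 1 locus, whose median ratio was 1.12. Adamts6 had a ratio of 1.18 (1.03 to 1.35) and Arhgap10 of 1.31 (1.17 to 1.47). A likeness over 2 columns is a weak measure and rests on 1 ratio per host.

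The pathway around attractin could not be followed in the table. Of 13 genes of the attractin family and melanocortin signalling, Atrnl1 alone was listed. The others included the paralog Atrn, the ubiquitin ligase Mgrn1, which acts with attractin in mouse pigmentation, and its relative Rnf157, the melanocortin receptors Mc1r to Mc5r, their antagonists Asip and Agrp, and the ligand precursor Pomc. Of the listed circRNAs of other hosts, the nearest that lay wholly below the Atrnl1 window belonged to Trub1 (a pseudouridine synthase). It ran from 278411269 to 278415032, with 2 counts in each column. The nearest above it belonged to Fam204a, from 281361991 to 281371644, with 8 and 7 counts, and neither differed between the columns beyond counting error.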

How the data were processed

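CircRNAs of rat dental follicle cells were measured by Illumina sequencing of total RNA after removal of DNA and linear RNA, per the labels' protocols. Per the submitters' processing notes, reads went through FastQC and BWA (no versions stated) on the build Rnor_6.0. Not given in the sources used here are the caller of circRNAs, the filters, the strand and how 3 libraries of a group were made into 1 column. Per the file headers, the authors deposited 1 count column per group, TPM values, a log2 ratio, a p-value and an FDR. The deposited TPM values equalled the count divided by a column total and multiplied by 1000000, within 0.00627%. The deposited log2 ratio compares the TPM of induction with that of control. No test is stated for the deposited p-value.

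The counts were analysed with Python 3.11.15, scipy 1.17.1 and, for scalings, edgeR 4.0.16 (TMM) and DESeq2 1.42.0 (size factors). With 1 column per group no replicate test was possible, and all p-values and FDRs printed are the authors' own. Ratios, shares and odds ratios carry exact 95% intervals, and the call rule was tested on simulated data. The simulated counts varied by counting error only, so that test cannot speak to the spread between cultures. The members and gene lists were chosen with earlier results of these data known. Every Atrnl1 circRNA is named, with Adamts6, Arhgap10, the 3 hosts of nearest summed ratio, the pathway list and the nearest neighbours. Dropping names spread over more than 5 Mb, sums by start and the background of at least 40 counts were chosen after seeing the data. Atrnl1 matched 1 entry, gene identifier 307992, of the RefSeq gene table (GRCr8, names only). A few genes that the naming rules include are not reported here.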

Additional observations from a re-analysis of the deposited data

How the results depend on the processing

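No paired analysis was possible because the libraries of a group were deposited as 1 column, and for that reason no library could be left out either. The ratio of the summed Atrnl1 counts, 1.74, stayed above 1 under each scaling, and its value without single circRNAs ranged from 1.60 to 2.11. Sums by start, each over a part of the circRNAs, moved it to 1.13 for S1, 2.40 for S2 and 2.98 for S3. Scaling to listed totals moved every log2 ratio by −0.13, after which 2 Atrnl1 circRNAs were called in place of 3, with S2-E8 lost, and among all circRNAs 7.89% were called higher and 11.2% lower. TMM factors, DESeq2 size factors, a minimum of 10 counts and the FDR of the authors' deposited table with 2-fold each called the same 3. Among all circRNAs, TMM factors called 9.15% higher, DESeq2 size factors 10.2% and the FDR with 2-fold 7.19%. Of the 3143 circRNAs with at least 10 counts, 12.2% were called higher. At 4-fold 0 Atrnl1 circRNAs and 370 of 4143 were called, and with an assumed coefficient of variation of 40% per column 0 and 299, in place of 3 and 767, both rules being stricter by construction. Of the 1126 circRNAs with at least 40 counts, 328 (29.1%) were called in either direction, against 18.5% of all 4143. Of the 4 Atrnl1 circRNAs with that depth, 3 were called. The odds ratio of S2 against S1, 2.13, ranged from 1.78 to 2.44 without single circRNAs. Its interval included 1 without S1-E2 (1.78, 0.992 to 3.16) and with the assumed variation, where the value stayed 2.13. With S2-E8 left out of the reference, S2-E7 also differed from the other members beyond counting error (1.90, 1.04 to 3.61). The numbers of starts and ends were the same when positions within 5 nt counted as equal. Low depth limits S1-E1, S1-E3, S1-E4, S1-E5, S1-E8 and S3-E8 most.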
